A study of Mus musculus with 51 samples.

Results

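The genes described here were 10 components of the oxygen-sensing pathway, chosen by name: the prolyl hydroxylases Egln1, Egln2 and Egln3, the asparaginyl hydroxylase Hif1an, the hypoxia-inducible factor (HIF) subunits Hif1a and Epas1, the ubiquitin ligase component Vhl, and the known hypoxia targets Vegfa, Bnip3 and Ldha. They were 10 of 23358 entries in the RPKM values of femurs from mice given or deprived of vitamin C (VitC) and 10 of 25938 genes in the normalised counts of femurs from mice with conditional knockout (cKO) of Tet1 and Tet2. RPKM is the number of reads per kilobase of transcript and per fixed number of mapped reads. All 10 passed the filter on low values in both data sets, in which 12571 and 16780 genes were tested. The question was whether hypoxia targets rose when VitC was withdrawn.

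The VitC experiment used C57BL/6 mice at 20 weeks of age, with 3 femur RNA libraries in each of 3 groups. WT mice made their own VitC. Gulo-/- mice, homozygous for the tm1Mae allele of Gulo, lack the last enzyme of VitC synthesis and received 3.3 g/L VitC in their drinking water. In the VitC+ group it was given until the end at week 20. In the VitC+/- group it was given until week 15, so that these mice then had 5 weeks without it. The Tet experiment used femurs of 11-week-old mice that made their own VitC, with 3 libraries in each of 4 groups. Ctrl mice expressed Prrx1-Cre alone, and Tet1 cKO, Tet2 cKO and Tet1/2 cKO mice carried Prrx1-Cre with floxed alleles of Tet1, Tet2 or both. All 4 groups thus expressed the Cre recombinase, which acts in the mesenchyme of the limb, so that blood cells of the marrow kept their Tet genes. Immunoprecipitated 5-hydroxymethylcytosine (5hmC, by hMeDIP) was available as peak lists of the VitC+ and VitC+/- femurs, of the femurs of Ctrl and double cKO mice, and of a mouse pre-osteoblast line, MC3T3-E1, grown with 50 µg/ml VitC or without it.

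The prolyl hydroxylases EGLN1, EGLN2 and EGLN3 add a hydroxyl group to HIF-α subunits when oxygen, iron and α-ketoglutarate are present, and VitC helps to keep their iron reduced. The VHL ubiquitin ligase binds the hydroxylated subunits and marks them for degradation, whereas HIF1AN (FIH) hydroxylates an asparagine and blocks the binding of coactivators. When hydroxylation falls, HIF-α protein accumulates, pairs with ARNT and activates genes with a core RCGTG motif, among them genes of glycolysis, angiogenesis and mitophagy. In bone, this pathway is known for coupling the growth of vessels to bone formation. The steps at HIF protein cannot be seen in RNA, so the data bear on transcripts of the components and of the targets.

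The 250 bases upstream of the transcription start are shown for 4 members that represent the range of the motif counts, taken from RefSeq in the build GRCm38.p6 and written 5′ to 3′ on the strand of the gene. Capitals mark matches to ACGTG or GCGTG on either strand. The Bnip3 window is chr7:138909507-138909756 on the minus strand, that of Ldha is chr7:46845554-46845803 on the plus strand, that of Egln3 is chr12:54203875-54204124 on the minus strand and that of Vegfa is chr17:46032378-46032627 on the minus strand.

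Bnip3: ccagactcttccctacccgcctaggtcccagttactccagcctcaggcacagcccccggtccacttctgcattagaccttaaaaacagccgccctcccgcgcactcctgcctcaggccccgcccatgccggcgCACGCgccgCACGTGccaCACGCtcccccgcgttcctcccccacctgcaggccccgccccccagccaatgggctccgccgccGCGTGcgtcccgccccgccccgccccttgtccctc
Ldha: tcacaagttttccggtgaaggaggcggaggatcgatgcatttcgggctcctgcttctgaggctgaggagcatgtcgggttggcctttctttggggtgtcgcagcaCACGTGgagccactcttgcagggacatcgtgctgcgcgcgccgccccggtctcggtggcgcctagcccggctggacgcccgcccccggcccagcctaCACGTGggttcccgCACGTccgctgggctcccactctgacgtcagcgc
Egln3: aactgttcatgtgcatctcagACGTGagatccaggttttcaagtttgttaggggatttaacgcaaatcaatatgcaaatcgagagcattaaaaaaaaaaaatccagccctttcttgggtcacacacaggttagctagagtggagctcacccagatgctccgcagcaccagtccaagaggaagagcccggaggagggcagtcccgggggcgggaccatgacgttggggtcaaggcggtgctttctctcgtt
Vegfa: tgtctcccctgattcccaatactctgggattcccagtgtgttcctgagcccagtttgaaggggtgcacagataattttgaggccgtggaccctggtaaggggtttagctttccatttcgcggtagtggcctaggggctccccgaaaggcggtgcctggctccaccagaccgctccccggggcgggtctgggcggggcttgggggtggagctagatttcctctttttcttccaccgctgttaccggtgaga

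The Bnip3 window held 2 matches to ACGTG and 3 to GCGTG and the Ldha window held 5 matches to ACGTG, counting each strand, so that the palindrome CACGTG counted on both strands. CACGTG occurred once upstream of Bnip3 and in 2 places upstream of Ldha. The Egln3 window held 1 match to ACGTG. Neither motif was found in the Vegfa window, nor in those of Hif1an and Vhl. Of 32817 upstream windows of the same length in the RefSeq table, 16.6% held ACGTG, 28.1% held GCGTG, 6.02% held CACGTG and 38.6% held at least 1 of ACGTG and GCGTG. Among the 9 members with an entry in that table, 6 held at least 1 match.

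Depth differed in 1 library. Reads per library, recovered from the RPKM values, came to 7.59 M in WT replicate 1 and to between 31.1 M and 47.4 M in the other 8 VitC femur libraries, and 11 Tet femur libraries held 28.6 M to 49.79 M. Marker lists of the cell types of bone and marrow moved with the VitC groups. In VitC+/- against VitC+ femurs, 8 of 9 B-cell precursor genes, 7 of 14 osteoblast and osteocyte genes and 2 of 10 neutrophil genes fell. Of the megakaryocyte genes 2 of 6 fell, and of the chondrocyte genes 1 of 4. Among osteoclast and macrophage genes 4 of 9 rose, and among erythroid genes 2 of 9. Over all genes tested, 5.5% rose and 7.96% fell. The summed RPKM of 12 skeletal muscle genes spanned 10.4 to 1819 across the 9 libraries with wide overlap between the groups. None of the 11 tested passed between VitC+/- and VitC+, but all 11 lay below 0, with a median log2 difference of -1.33. RNA was taken from flushed and minced femurs, per the methods. In these bulk samples, fewer cells of a type, less RNA per cell and different amounts of marrow left after flushing cannot be told apart. Gulo itself lay between 0 and 0.544 RPKM in all 9 VitC libraries, too low to check the labels. Tet1 counted 374 to 435 in Ctrl libraries, 532 to 773 in the libraries labelled Tet1 cKO and 415 to 485 in those labelled Tet1/2 cKO. Tet2 counted 2236 to 2512 in Ctrl libraries, 1834 to 2245 in those labelled Tet2 cKO and 1851 to 2970 in those labelled Tet1/2 cKO. Gene-level counts over all exons thus showed no clear loss and did not check the labels. Per the methods, the femur libraries of each group were biological replicates.

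Among the hypoxia targets, Bnip3 was higher in every VitC-deprived femur than in any other. Bnip3 (chr7:138890836-138909506, mm10) encodes a mitochondrial outer membrane protein that promotes mitophagy. Its RPKM, scaled between libraries by the median of ratios, was 31.6, 81.5 and 35.9 in VitC+/- replicates 1 to 3, 12.6, 11.0 and 12.3 in VitC+ replicates and 10.5, 6.52 and 8.94 in WT replicates. The lowest VitC+/- library thus lay above the highest of the other 6. The difference between VitC+/- and VitC+ on the log2(RPKM + 0.5) scale was 1.88 ± 0.32 (SE, n = 3), with a 95% interval from 1.15 to 2.60, or 3.67-fold (limma, adjusted p = 0.0088). Against WT it was 2.35 ± 0.32, with an interval from 1.62 to 3.07, or 5.09-fold (limma, adjusted p = 0.00145). Both comparisons share the same VitC+/- libraries. The highest value came from VitC+/- replicate 2, and without that library the difference from VitC+ was 1.46 (limma, adjusted p = 0.00606). That library also had the highest sum of the 12 adipocyte markers, 2537 RPKM against 118 to 420 in the other 8, with the adipocyte genes Adipoq and Plin1 in the list. The adipocyte sums were 384 and 325 in the other 2 VitC+/- libraries, 193 to 420 in VitC+ and 118 to 198 in WT femurs. Against VitC+, 1 of 10 adipocyte markers tested rose and 9 of 10 lay above 0, with a median log2 difference of 1.35. Against WT, 7 of 10 rose, with a median of 2.44. The part of adipocyte RNA in the Bnip3 results was not tested. Osteoclast and macrophage markers moved with the same groups, with sums over 9 genes of 818 to 875 RPKM in WT, 1955 to 2657 RPKM in VitC+ and 2986 to 6559 RPKM in VitC+/- femurs and none of them at 0. The sums of 9 erythroid genes were 229 to 282 RPKM in WT, 231 to 332 RPKM in VitC+ and 337 to 457 RPKM in VitC+/- femurs. The part of osteoclast, macrophage and erythroid RNA in the Bnip3 and Vegfa results was not tested.

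Vegfa (chr17:46016993-46032377), the main angiogenic ligand induced by hypoxia, rose against WT and did not pass the threshold against VitC+. Vegfa was at 19.5, 42.1 and 38.2 RPKM in VitC+/- femurs, 15.2, 15.1 and 19.6 RPKM in VitC+ femurs and 9.85, 12.9 and 10.8 RPKM in WT femurs. Replicates 2 and 3 of VitC+/- stood above all other libraries, whereas replicate 1 lay within the VitC+ range. The difference from WT was 1.46 ± 0.27 on the log2 scale, or 2.76-fold (limma, adjusted p = 0.00447). The difference from VitC+ was 0.91 ± 0.27, with an interval from 0.31 to 1.52 (limma, adjusted p = 0.053). It passed the threshold without VitC+/- replicate 1, at 1.26 (limma, adjusted p = 0.0144). The 10 endothelial markers, which include the VEGF receptor gene Kdr, summed to 190 to 220 RPKM in VitC+/- femurs and 181 to 298 in VitC+ femurs, and none of them passed the test between these groups. In WT femurs they summed to 93.5 to 191 RPKM, and against WT 5 of 10 rose, with a median log2 difference of 0.65. Their part in the difference of Vegfa from WT was not tested.

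Ldha (chr7:46845804-46855627) encodes the muscle-type subunit of lactate dehydrogenase, which turns pyruvate into lactate. It had the highest RPKM of the 10 members in every library, with 197, 170 and 236 in VitC+/- femurs, 163, 215 and 176 in VitC+ femurs and 214, 224 and 242 in WT femurs. The groups overlapped. The difference between VitC+/- and VitC+ was 0.12 ± 0.17 on the log2 scale, with an interval from -0.25 to 0.49 (limma, adjusted p = 0.669), and that against WT was -0.18, with an interval from -0.56 to 0.19. Reads of Ldha may be shared with its processed pseudogenes, so its level is uncertain.

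**Figure D1:**
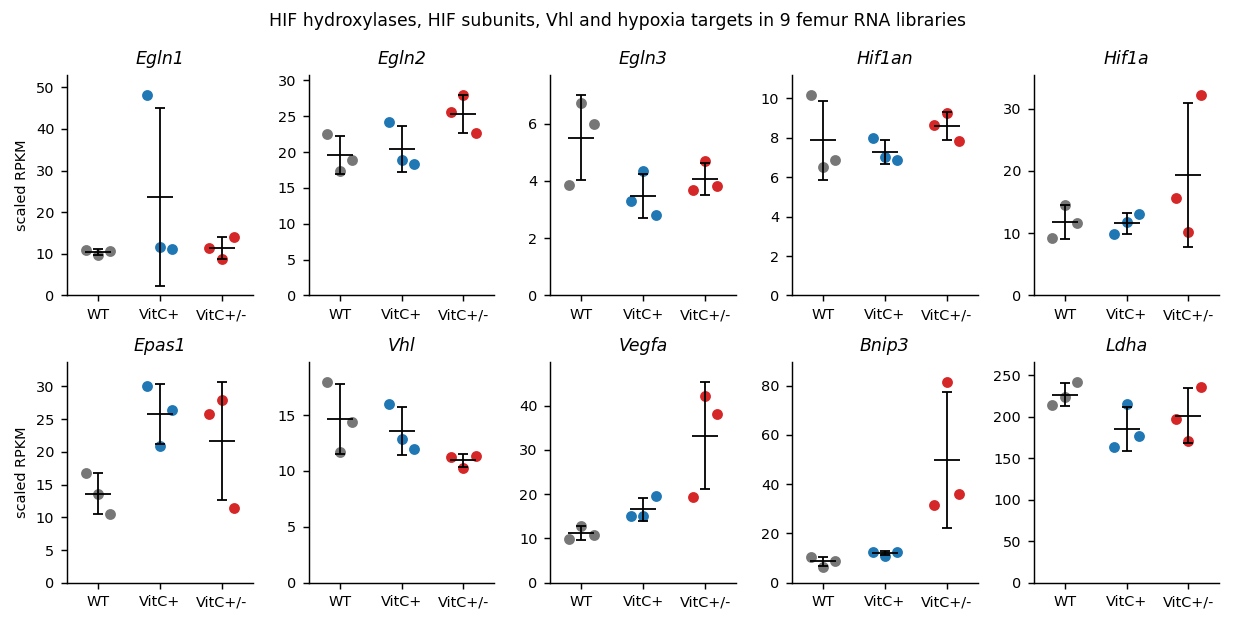
Scaled RPKM (linear axis from 0 in each panel) of the 10 members in each VitC femur library, with WT, VitC+ and VitC+/- side by side, 3 points per group and the mean with its SD. The VitC+/- points of Bnip3 lie between 31.6 and 81.5, all above the other 6 libraries, and 1 VitC+ library stands apart for Egln1 at 48.2.

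Transcripts of the 4 hydroxylases did not pass the threshold in any VitC comparison. Egln1 (chr8:124908587-124949254), which encodes PHD2, the main oxygen sensor, was at 11.5, 8.78 and 13.9 RPKM in VitC+/- femurs and at 10.8, 9.63 and 10.8 RPKM in WT femurs. In VitC+ femurs it was at 11.2 and 11.5 RPKM in replicates 3 and 2 and at 48.2 RPKM in replicate 1. That value was 3.46 times the highest of the other 8 libraries, and 2 of 12571 genes tested (0.0159%), Egln1 among them, stood above the other libraries by at least this ratio in that library. The log2 difference between VitC+/- and VitC+ was -0.70 ± 0.47 (limma, adjusted p = 0.348), and it shrank to -0.02 without VitC+ replicate 1.

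Egln2 (chr7:27158658-27166802), which encodes PHD1, was at 25.6, 27.9 and 22.6 RPKM in VitC+/- femurs, 24.2, 18.9 and 18.3 RPKM in VitC+ femurs and 22.5, 17.4 and 18.9 RPKM in WT femurs. The VitC+/- values did not overlap with those of WT and overlapped with those of VitC+. The differences were 0.31 ± 0.16 against VitC+ (limma, adjusted p = 0.215) and 0.37 ± 0.16 against WT (limma, adjusted p = 0.106). Egln3 (chr12:54178981-54203874) encodes PHD3, itself a hypoxia target. It had the lowest RPKM of the hydroxylases in 8 of the 9 libraries, all but WT replicate 2, with 3.67, 4.71 and 3.81 in VitC+/- femurs, 3.29, 4.33 and 2.80 in VitC+ femurs and 3.84, 6.73 and 5.97 in WT femurs. All 3 groups overlapped, and the difference between VitC+/- and VitC+ was 0.21 ± 0.23 (limma, adjusted p = 0.573). Hif1an (chr19:44562854-44576274) was at 8.65, 9.26 and 7.84 RPKM in VitC+/- femurs and between 6.52 and 10.2 RPKM in the other 6 libraries. It differed by 0.22 ± 0.18 between VitC+/- and VitC+ (limma, adjusted p = 0.436).

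Neither the HIF subunits nor Vhl passed the threshold in any VitC comparison. Hif1a (chr12:73907867-73947530) was at 15.6, 10.2 and 32.3 RPKM in VitC+/- femurs, 9.84, 11.8 and 13.1 RPKM in VitC+ femurs and 9.21, 14.6 and 11.7 RPKM in WT femurs. Its highest value came from VitC+/- replicate 3, which also had the highest sum of the osteoclast and macrophage markers, 6559 RPKM against 818 to 5328 in the other libraries. The log2 difference between VitC+/- and VitC+ was 0.57 ± 0.35 (limma, adjusted p = 0.309). Epas1 (chr17:86753864-86833410), which encodes HIF-2α, a subunit common in endothelial cells, was at 25.7, 28.0 and 11.4 RPKM in VitC+/- femurs, 30.1, 20.9 and 26.4 RPKM in VitC+ femurs and 16.8, 13.6 and 10.5 RPKM in WT femurs. The difference between VitC+/- and VitC+ was -0.33 ± 0.32 (limma, adjusted p = 0.526). Vhl (chr6:113624021-113631633), whose product recognises hydroxylated HIF-α, was at 11.2, 10.3 and 11.3 RPKM in VitC+/- femurs, 16.0, 12.8 and 11.9 RPKM in VitC+ femurs and 18.0, 11.7 and 14.4 RPKM in WT femurs. Every VitC+/- value of Vhl lay below all others, but the differences of -0.29 ± 0.18 from VitC+ (limma, adjusted p = 0.299) and -0.39 ± 0.18 from WT (limma, adjusted p = 0.121) did not pass.

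In all, 1 of the 10 members passed the threshold between VitC+/- and VitC+, where 13.5% of all genes tested did so, 5.5% higher and 7.96% lower. Values of VitC+/- and VitC+ femurs did not overlap for 2 members, Bnip3 (higher) and Vhl (lower), beside 40.5% of all genes, 20.5% higher and 20.1% lower. Between VitC+/- and WT, 2 members passed, Bnip3 and Vegfa, beside 31% of all genes, 15.3% higher and 15.7% lower. Groups did not overlap there for Bnip3, Vegfa, Egln2 and Vhl, beside 42.7% of all genes, 21.4% higher and 21.3% lower. The median log2 difference of the members was 0.22 against VitC+ and 0.25 against WT, and over all genes it was 0.01 in both cases. With both directions counted, the shares of members called were thus near or below those of all genes. The called members were all higher, 1 of 10 against VitC+ beside 5.5% of all genes and 2 of 10 against WT beside 15.3%. The members were chosen with earlier results of these data known, so these shares are descriptive.

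**Figure D2:**
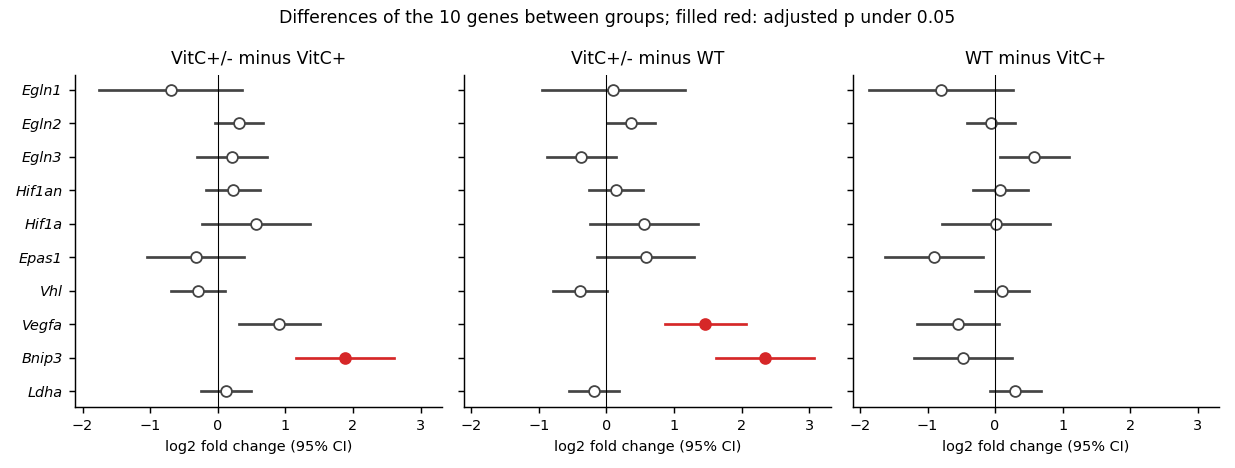
Difference on the log2(scaled RPKM + 0.5) scale of each member in the 3 comparisons of VitC femurs, with bars for the 95% interval and filled points for an adjusted p under 0.05. Bnip3 is filled at 1.88 against VitC+ and at 2.35 against WT, and Vegfa at 1.46 against WT alone.

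Supplemented Gulo-/- femurs were next compared with WT, both with VitC. No member passed, and neither did any other gene (limma, 0% of 12571, with 2714 genes or 21.6% at an unadjusted p under 0.05). Epas1 was 0.91 ± 0.32 lower in WT on the log2 scale, from 10.5 to 16.8 RPKM against 20.9 to 30.1 RPKM in VitC+ femurs, with no overlap (limma, adjusted p = 0.158). Vegfa, Bnip3 and Egln1 were also below the VitC+ range in every WT library, by -0.55 (limma, adjusted p = 0.269), -0.47 (limma, adjusted p = 0.419) and -0.80 (limma, adjusted p = 0.35). The Egln1 difference rested on VitC+ replicate 1 and shrank to -0.12 without that library. Non-overlap between these groups was found for 28.4% of all genes and in the lower direction for 15%. Marker lists moved here too, although no marker passed. Of 10 endothelial markers, 10 lay below 0 and 8 without overlap, with a median of -0.90. All 9 osteoclast and macrophage markers were lower without overlap, with a median of -1.40, whereas 10 of 10 neutrophil markers lay above 0, with a median of 0.87. The part of these cell types in the differences of Epas1, Vegfa and Bnip3 was not tested. Egln3 was the member with the largest positive difference, 0.58 ± 0.23 (limma, adjusted p = 0.189), with overlapping groups. The order of Bnip3 and Vegfa levels was thus WT, VitC+ and VitC+/-, with a step from WT to VitC+ that did not pass the test.

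Genes of the same pathway were counted in 6 lists, to be read beside the 5.5% of all genes tested that rose and the 7.96% that fell between VitC+/- and VitC+. The lists were chosen with earlier results of these data known, so their counts are descriptive and do not test for an excess. Among 39 tested genes known as HIF targets outside glycolysis, 8 rose in VitC+/- against VitC+ femurs, none fell, and 31 did not pass. The median log2 difference of this list was 0.33. Ddit4, an inhibitor of mTORC1 signalling, rose from 39.0, 17.0 and 21.0 to 87.7, 121 and 97.6 RPKM, a log2 difference of 2.05 (limma, adjusted p = 0.0277). Hilpda, which encodes a lipid droplet protein, rose by 1.15 (limma, adjusted p = 0.0245) and Rora, which encodes a nuclear receptor, by 1.11 on the log2 scale (limma, adjusted p = 0.0447). Rora passed in 8 of 15 alternatives and not with RPKM as deposited (limma, adjusted p = 0.0604), with a filter of RPKM above 0 in 1 library (limma, adjusted p = 0.0564) or with a pseudocount of 0.1 (limma, adjusted p = 0.079). Bhlhe40, Kdm3a, Zfp395 and Kdm4b also rose, and were named after their values were seen. Cxcl12 and Mif, the most highly expressed genes of the list that did not pass, differed by 0.01 and 0.23. This count depended on single libraries, with 1 gene called without VitC+ replicate 2, 1 without VitC+/- replicate 1, 2 without VitC+ replicate 1 or VitC+ replicate 3, 4 without VitC+/- replicate 3, and up to 9 without WT replicate 1.

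Among 19 tested glycolysis genes known as HIF targets, 3 rose and none fell, with a median of 0.11. The glucose transporter gene Slc2a1 rose from 4.51, 5.24 and 5.33 RPKM to 9.91, 8.49 and 20.6 RPKM, a log2 difference of 1.19 (limma, adjusted p = 0.0288). Pfkfb3, which encodes a regulator of phosphofructokinase, rose by 0.65 (limma, adjusted p = 0.0456) and Pdk1, which encodes an inhibitor of pyruvate dehydrogenase, by 0.61 (limma, adjusted p = 0.0348). Pfkfb3 passed in only 7 of 19 alternatives. It did not pass with RPKM as deposited (limma, adjusted p = 0.106), upper quartile scaling (limma, adjusted p = 0.051), a filter of RPKM above 0 in 1 library (limma, adjusted p = 0.0608) or no trend (limma, adjusted p = 0.053). Pdk1 did not pass with RPKM as deposited (limma, adjusted p = 0.0902). The count was 0 without VitC+/- replicate 1 or any one of the VitC+ replicates, 1 without VitC+/- replicate 3 or WT replicate 3, and 4 without WT replicate 2. Against these, the enzymes Pkm2 and Aldoa differed by 0.50 (limma, adjusted p = 0.083) and 0.11. Ldha belonged with the genes that did not pass.

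Of 15 mitophagy genes, the group in which Bnip3 acts, 2 rose and none fell. The kinase gene Ulk1 went from 7.16, 6.37 and 7.38 RPKM to 15.8, 19.5 and 11.3 RPKM, a rise of 1.07 on the log2 scale (limma, adjusted p = 0.0106). Sqstm1, which encodes the cargo receptor p62, rose by 0.63 (limma, adjusted p = 0.0264). The count was 1 when any of the VitC+ replicates, VitC+/- replicate 1 or VitC+/- replicate 3 was left out. Of 16 genes of the HIF machinery beyond the members, 1 rose, the coactivator gene Crebbp, by 1.18 (limma, adjusted p = 0.0186), and this call was absent without VitC+ replicate 1, VitC+ replicate 2 or VitC+/- replicate 1. Of 16 lactate and pyruvate genes 1 rose, Pdk1. Both shares were near that of all genes. None of the 12 tested VEGF family and receptor genes passed (limma, adjusted p under 0.05), and their median was -0.25. Nrp2 and Tie1 differed by -0.59 and -0.04 in that list. Among the most highly expressed genes of the other lists that did not pass, Gabarap differed by -0.63, Phb2 by 0.23, Gnb2l1 by -0.04, Hsp90ab1 by 0.02, Bsg by -0.07 and Emb by 0.11. The median over all genes was 0.01.

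Against WT, where 15.3% of all genes were higher and 15.7% lower, the lists held calls in both directions. Of 39 HIF targets outside glycolysis, 16 were higher and 4 lower in VitC+/- femurs, and of 19 glycolysis genes 1 was higher and 4 lower. Of 12 VEGF family and receptor genes, 4 were higher and none lower. Of 15 mitophagy genes 4 were higher, of 16 HIF machinery genes 3 were higher, and of 16 lactate and pyruvate genes 3 were higher and 2 lower. The last 2 lists were near the share of all genes. Marker lists moved in this comparison too. Of the neutrophil genes 10 of 10 were lower and of the B-cell precursor genes 8 of 9, whereas 8 of 9 osteoclast and macrophage genes were higher. The part of these cell types in the list counts was not tested. No gene of any list passed between WT and VitC+, where 0% of all genes did, so this does not set the lists apart. Groups did not overlap there for 10 of 12 VEGF family and receptor genes, all lower in WT. They also did not overlap for 9 of 19 glycolysis genes, all higher in WT. Of 39 HIF targets outside glycolysis, 13 were lower and 4 higher in WT without overlap, beside 28.4% of all genes. The endothelial markers, among them Kdr and Tie1 of the VEGF list, moved between VitC+/- and WT, with 5 of 10 higher against WT. The part of endothelial cells in the VEGF list was not tested.

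**Figure D3:**
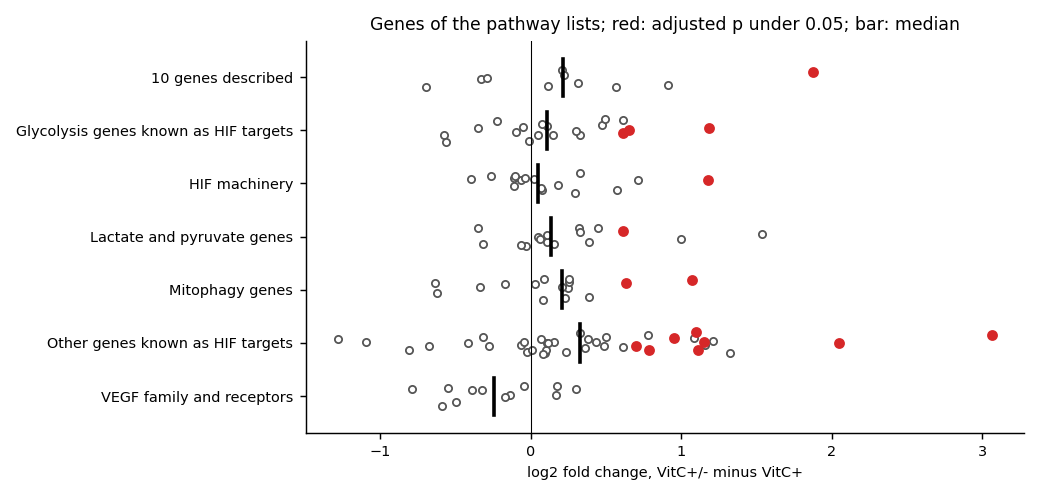
Difference between VitC+/- and VitC+ femurs on the log2(scaled RPKM + 0.5) scale for every tested gene of the 6 lists and the 10 members, 1 point per gene, with filled red points for an adjusted p under 0.05 and a bar at each median. The HIF targets outside glycolysis hold 8 filled points, all above 0, whereas the VEGF family and receptors hold none and have a median of -0.25.

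The genes with the pattern most like that of a member over the 9 VitC libraries were found by the root mean square difference of centred log2 values. For Bnip3 they were Sgk1, with a difference of 0.26, Gadd45g with 0.27 and Inca1 with 0.29, against a spread of 1.08 in Bnip3 itself. Sgk1 encodes a kinase induced by serum and glucocorticoids and Gadd45g a stress-induced protein. For Vegfa they were Pkd1 at 0.20, Rora at 0.22 and Flywch1 at 0.23, against a spread of 0.68. Ldha was matched more closely, by Fam60a at 0.07, Shoc2 at 0.08 and Atad1 at 0.09, and its own spread was only 0.20. Egln3 was nearest to 5730528L13Rik at 0.08, Kif23 at 0.11 and Mcmbp at 0.13. Kif23 encodes a kinesin of cytokinesis.

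In the femurs of the Tet experiment no member passed the threshold in any comparison with Ctrl. The share of all genes called was 0.0119% for Tet1 cKO and for Tet2 cKO and 0% for Tet1/2 cKO (limma), where 5.05% of genes, 847 in number, had an unadjusted p under 0.05. On reads recovered from the normalised counts, edgeR called 0 genes and DESeq2 called 11 for Tet1/2 cKO, and neither called a member. These 3 comparisons share the Ctrl libraries. Bnip3 was at 382, 1446 and 1169 normalised counts in Ctrl femurs, 2662, 474 and 490 in Tet1 cKO femurs, 3690, 2008 and 353 in Tet2 cKO femurs and 494, 436 and 940 in Tet1/2 cKO femurs. Each cKO group overlapped with Ctrl. The log2 differences from Ctrl were -0.02 ± 0.89 for Tet1 cKO, 0.67 ± 0.89 for Tet2 cKO and -0.56 ± 0.89 for Tet1/2 cKO, and the interval of the last ran from -2.52 to 1.41.

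Bnip3, Ldha and Hif1an moved with the skeletal muscle markers in these libraries. The summed counts of the 12 muscle genes, such as Acta1 and Ckm, reached 1897300, 1445400 and 869920 in Tet2 cKO replicate 1, Tet1 cKO replicate 1 and Tet2 cKO replicate 2. These were the libraries with the highest counts of Bnip3, at 3690, 2662 and 2008, and of Ldha, at 50364, 45456 and 33222. Hif1an was also highest there, at 6000.5, 4681 and 3575. Egln1, Egln3 and Vegfa had their highest counts in Tet2 cKO replicate 1 and Tet1 cKO replicate 1, with Egln1 at 7209 and 5875. The highest counts of Hif1a and Vhl came from Tet1/2 cKO libraries instead. The 5 libraries with the lowest muscle sums, from 4403 to 28367, held 353 to 494 counts of Bnip3. With the muscle list as a covariate, an alternative chosen after seeing the data, the Bnip3 differences became 0.74 for Tet1 cKO and 0.63 for Tet1/2 cKO, with adjusted p of 0.932 and 0.873 (limma). The Egln1 difference for Tet1/2 cKO went from -0.60 to 0.096 (limma, adjusted p = 0.968). In the VitC femurs the same covariate left Bnip3 at 1.86 between VitC+/- and VitC+ (limma, adjusted p = 0.0209). It ended the calls of Slc2a1 (limma, adjusted p = 0.0533), Pfkfb3 (limma, adjusted p = 0.0787), Pdk1 (limma, adjusted p = 0.0586), Ddit4 (limma, adjusted p = 0.0519) and Rora (limma, adjusted p = 0.0597), and left 3 HIF targets outside glycolysis and no glycolysis gene past the threshold.

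Vegfa was at 2476, 5907 and 4613 normalised counts in Ctrl femurs, 7555, 3604 and 4556 in Tet1 cKO femurs, 10357, 4995 and 3810 in Tet2 cKO femurs and 3184, 2239 and 3194 in Tet1/2 cKO femurs. The log2 difference between Tet1/2 cKO and Ctrl was -0.52 ± 0.42 (limma, adjusted p = 0.73). Epas1 was at 2395, 2650 and 3558 normalised counts in Tet1/2 cKO femurs and at 3882, 4931 and 5102 in Ctrl femurs, without overlap, a difference of -0.70 ± 0.36 (limma, adjusted p = 0.723). Egln2 showed the same order, with 827, 1069 and 1120 normalised counts against 1128, 1258 and 1395, a difference of -0.33 ± 0.18 (limma, adjusted p = 0.723). Non-overlap between Tet1/2 cKO and Ctrl was found for 2 of the 10 members and for 17.4% of all genes, 10% in the lower direction. The endothelial markers lay lower as well, 10 of 10 below 0 and 5 without overlap, with a median log2 difference of -0.60 and 0 past the threshold. Their part in the differences of Epas1 and Vegfa was not tested. In Tet1 cKO and Tet2 cKO femurs every member overlapped with Ctrl, beside 7.82% and 5.97% of all genes that did not.

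Whether loss of both Tet genes differed from the sum of the single losses was tested as an interaction. No member passed at an adjusted p under 0.05, beside 0.0119% of all genes. The interaction was -0.83 ± 0.25 for Egln2 (limma, adjusted p = 0.46), with an interval from -1.37 to -0.28, and -1.33 ± 0.59 for Vegfa (limma, adjusted p = 0.46). None of the genes in the 6 pathway lists passed in any comparison of the Tet femurs. Over the 12 libraries Egln1 ranged from 1394 to 7209 normalised counts, Egln3 from 237 to 1015, Hif1an from 2443 to 6000.5, Hif1a from 2231 to 4724 and Vhl from 1241 to 2570.

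**Figure D4:**
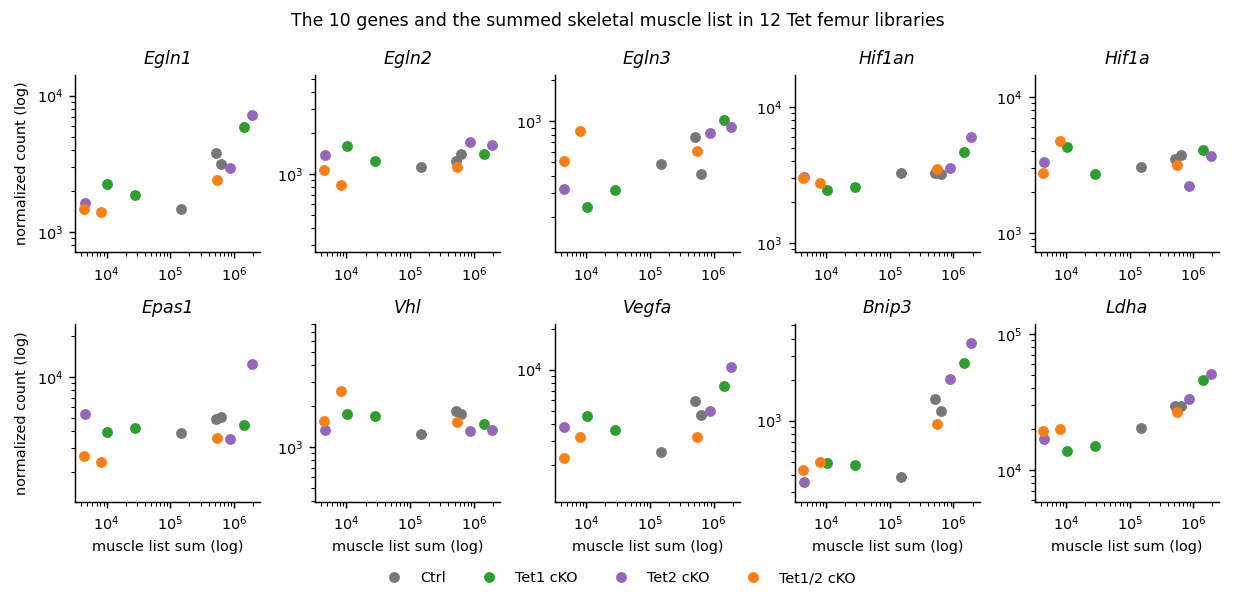
Normalised counts of each member (log axis) against the summed normalised counts of the 12 skeletal muscle genes (log axis) in the 12 Tet femur libraries, 1 point per library, coloured by group. Bnip3 spans 353 to 3690 and is highest in the 3 libraries with the highest muscle sums, whereas Vhl stays between 1241 and 2570.

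Peaks of 5hmC were counted where their midpoint lay within 30 kb of the transcription start, from 1 list per group that was called on pooled replicates, so that these values have no replicate check. Each value is the number of bases covered, compared as a log2 ratio after adding 1000 bp. Between VitC+/- and VitC+ femurs, no member passed 1.5-fold in either direction, beside 7.55% of 19806 genes lower and 10.4% higher. The median ratio was -0.38 over the members and -0.10 over all genes. It was -0.31 for the mitophagy list, -0.28 for HIF machinery and -0.26 for HIF targets outside glycolysis. For the lactate and pyruvate list it was -0.18, for glycolysis -0.17 and for the VEGF family and receptors 0.01. The lowest ratios were those of Ldha, with 2211 bp in VitC+/- and 3658 bp in VitC+ femurs, and Egln2, with 465 bp and 1063 bp. At Bnip3 10 peaks covered 4355 bp in VitC+/- and 14 peaks covered 5927 bp in VitC+ femurs. The peak of highest enrichment near Bnip3 in VitC+ femurs lay at chr7:138919982-138921222, 11096 bp upstream of the start, with 11.9-fold enrichment, and in VitC+/- femurs a peak at chr7:138919989-138921226 had 9.20-fold enrichment. Vegfa had 3 peaks in VitC+/- and 5 in VitC+ femurs, all between 14819 and 26307 bp downstream of the start. At Hif1a the ratio was above 0, with 11525 bp in VitC+/- and 10770 bp in VitC+ femurs. The lists as a whole covered 175 Mb in each group.

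In Tet1/2 cKO against Ctrl femurs, 8 of 10 members had at least 1.5-fold less, beside 72.4% of all genes lower and 0.106% higher. The member median was -1.14 and that of all genes -0.96. Hif1an had 10 peaks over 6413 bp in Ctrl and 1 peak of 438 bp in Tet1/2 cKO femurs. Egln1, with 24148 bp against 28353 bp, and Epas1, with 19136 bp against 23804 bp, were the members within 1.5-fold. At Bnip3 the peaks covered 7566 bp in Tet1/2 cKO and 12332 bp in Ctrl femurs.

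In MC3T3-E1 cells at day 28, 6 of 10 members had more 5hmC with VitC than without it and none had less, beside 46.7% of all genes higher and 28.8% lower. The median was 1.22 for the members and 0.48 for all genes. Ldha went from 836 bp to 6608 bp, Egln1 from 4618 bp to 20331 bp, Vhl from 5553 bp to 17709 bp, Vegfa from 3091 bp to 9603 bp and Bnip3 from 2430 bp to 7615 bp. Hif1a was the sixth, and Egln2, Egln3, Hif1an and Epas1 stayed within 1.5-fold. The histone marks were measured in a separate and shorter culture of MC3T3-E1 cells, per the methods. Peaks of the repressive mark H3K27me3 within the same distance covered less with VitC at 4 members, Egln1, Egln2, Egln3 and Bnip3, beside 33.2% of all genes, and more at none, beside 3.08%. H3K9me3 peaks covered less at Egln1, Epas1, Vhl, Vegfa and Bnip3, beside 25.6% of all genes, and more at none, beside 4.1%. Bnip3 went from 7712 bp to 2087 bp of H3K27me3 and from 2051 bp to 722 bp of H3K9me3, and Ldha had no peak of either mark in either list.

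**Figure D5:**
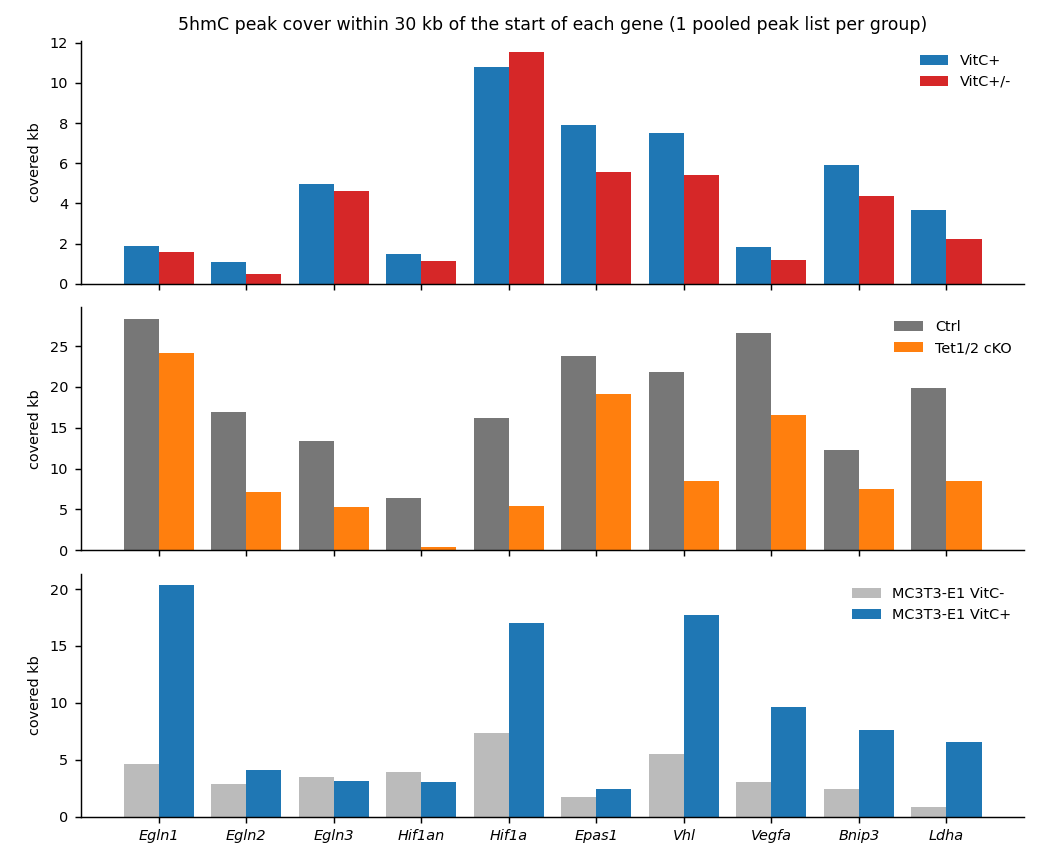
Kilobases covered by 5hmC peaks within 30 kb of the start of each member, as bars from 0 for the VitC+ and VitC+/- groups, the Ctrl and Tet1/2 cKO groups, and cultured MC3T3-E1 cells without and with VitC, each from 1 pooled list without error bars. The median log2 ratio of the members is -0.38 for VitC+/- against VitC+ and -1.14 for Tet1/2 cKO against Ctrl, beside -0.10 and -0.96 over all genes.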

How the data were processed

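Femur RNA was compared over 9 VitC libraries and 12 Tet libraries. Per the methods and the submitters' processing notes, the authors trimmed reads (Trim Galore 0.4.3.1), aligned them to mm10 (STAR 2.6.0b-1), counted Tet reads per gene (featureCounts 1.6.3) and deposited counts divided by DESeq2 2.11.40.2 size factors, a normalised signal. For the VitC femurs the authors deposited RPKM values, and the program that made them is not given in the sources used here. The deposited peak lists, made by the authors with BWA 0.7.15.1 and MACS2 (2.1.1.20160309.6 in the notes, another version in the methods) on pooled replicates, give for each peak its fold enrichment over background and its −log10 p- and q-values, and in the hMeDIP lists of MC3T3-E1 cells also its pileup signal.

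RPKM was scaled by the median of ratios (factors 0.7439 to 1.108), without 69 entries that share 26 names, and the test on log2(RPKM + 0.5) took genes that reached an RPKM of 1 in 3 or more libraries. For the Tet femurs it took genes that reached a normalised count of 10 in 3 or more libraries, on log2(count + 1). Both used limma 3.58.1 in R 4.3.3 with an intensity trend, all groups of an experiment in one fit and Benjamini-Hochberg adjustment over all genes, with a threshold of 0.05. A fold change on these scales understates that of low genes. Nearly all deposited Tet values were whole multiples of 1 read (tolerance 0.02), except in Tet1 cKO replicate 3, and the recovered reads of the other 11 libraries were tested with edgeR 4.0.16 and DESeq2 1.42.0 as alternatives. Reads of the VitC libraries were estimated from RPKM and transcript length, for depth only. Peak cover was computed with Python 3.11.15 for 19806 genes on chromosomes other than X and Y. The limma fit of VitC+/- minus VitC+ and the limma, edgeR and DESeq2 fits of Tet1/2 cKO minus Ctrl were tested on simulated data. The simulated counts had the same dispersion for all genes, and the other comparisons and settings were not simulated. The members and gene lists were chosen with earlier results of these data known. Named genes were all members, in each pathway list up to 4 genes with the largest change past the threshold between VitC+/- and VitC+ and the 2 most highly expressed that did not pass, and the 3 genes nearest in pattern to Egln3, Vegfa, Bnip3 and Ldha. One gene that this rule names is not reported here.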

Additional observations from a re-analysis of the deposited data

How the results depend on the processing

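Bnip3 stayed past the threshold in both comparisons of VitC+/- femurs under all 19 alternatives, with a difference from VitC+ between 1.46 and 2.14 (limma, adjusted p from 0.00499 to 0.038). Vegfa stayed past it against WT under all 19 and passed against VitC+ under 2, without VitC+/- replicate 1 and with the replicate block. With 3 libraries a group, changes smaller than the intervals given could not be seen, and 7.59 M reads in WT replicate 1 limit low genes there. Against VitC+, Ulk1 passed in all 19, Crebbp in 16, Slc2a1, Hilpda and Sqstm1 in 14 each, Ddit4 in 13 and Pdk1 in 11. The processing alternatives that ended calls of Pfkfb3, Pdk1 and Rora are given beside those genes. Calls that the muscle covariate ended are given with the muscle markers of the Tet femurs. The causes of the changes below were not tested.

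The number of genes past the threshold between VitC+/- and VitC+ was 1692, of which 40.8% were higher, against 877 with RPKM as deposited, of which 53.8% were higher and the median of all genes shifted to 0.13, and 1068 with the muscle list as covariate, an alternative chosen after seeing the data. For WT minus VitC+ it was 0, against 17 with upper quartile scaling, 4 with an RPKM of at least 5, 5 with a pseudocount of 0.1, 9 without the trend and 8 with 2 groups in the fit. For Tet1 cKO and Tet2 cKO it was 2 each, against 0 and 1 with edgeR and 13 and 15 with DESeq2, and for Tet2 cKO 0 with 2 groups in the fit. DESeq2 called 11 for Tet1/2 cKO and 35 for the interaction, where limma called 0 and 2.

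Groups share replicate numbers, and the labels do not say whether same-numbered libraries share more than the number. Such libraries deviated together in some pairs only, with correlations from -0.193 to 0.467 in the VitC femurs and from -0.49 to 0.231 in the Tet femurs. These correlations do not decide whether a replicate block was needed, so it was used as an alternative. With the replicate block, 2 members passed between VitC+/- and VitC+ in place of 1, adding Vegfa (limma, adjusted p = 0.0272), 789 genes passed for WT minus VitC+ and 0 for Tet1 cKO and Tet2 cKO.

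Differences that changed sign were not past the threshold in either setting. With RPKM as deposited these were Gnb2l1 at 0.11, Bsg at 0.076 and Tie1 at 0.093 between VitC+/- and VitC+, and Egln2 at 0.047 for WT minus VitC+. Hif1a turned to -0.047 with upper quartile scaling for WT minus VitC+ and -0.049 for Tet1/2 cKO, and to -0.036 for WT minus VitC+ with an RPKM of at least 5. With the muscle covariate they were Cxcl12 at -0.12 against VitC+ and Egln1 at -0.0032 against WT, then for Tet1 cKO Egln3 at 0.025, Hif1an at 0.13, Vhl at -0.00059, Bnip3 at 0.74 and Ldha at 0.075, and for Tet1/2 cKO Egln1 at 0.096, Hif1an at 0.23, Bnip3 at 0.63 and Ldha at 0.34. Cxcl12 was at -0.0014 with 2 groups in the fit. For Tet1 cKO edgeR gave Egln3 0.22, Hif1an 0.14, Hif1a -0.038, Vhl -0.057, Bnip3 0.61 and Ldha 0.16, and DESeq2 gave them, in that order, 0.25, 0.16, -0.011, -0.034, 0.65 and 0.19. The interaction of Egln3 was -0.26 with edgeR and -0.31 with DESeq2.

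Leaving out 1 library at a time gave these ranges. Between VitC+/- and VitC+, 489 to 2285 genes and 1 to 2 members passed, with Epas1 from -0.55 to 0.069, Ldha from -0.0050 to 0.24, Aldoa from -0.077 to 0.38, Gnb2l1 from -0.11 to 0.061, Hsp90ab1 from -0.023 to 0.088, Bsg from -0.16 to 0.084, Cxcl12 from -0.34 to 0.19 and Tie1 from -0.13 to 0.024. The lowest count was without VitC+/- replicate 1, and 496, 562 and 713 genes passed without VitC+ replicates 2, 3 and 1. Against WT, 2292 to 4043 genes and 2 to 3 members passed, with the fewest genes without WT replicate 3, and Egln1 was from -0.045 to 0.28. For WT minus VitC+, 0 to 665 genes passed, the most without WT replicate 1, with Egln2 from -0.15 to 0.067, Hif1an from -0.11 to 0.19, Hif1a from -0.14 to 0.18 and Vhl from -0.050 to 0.25. For Tet1 cKO, 0 to 4 genes passed, with Egln1 from -0.35 to 0.48, Egln3 from -0.98 to 0.072, Hif1an from -0.37 to 0.10, Hif1a from -0.035 to 0.29, Vhl from -0.14 to 0.14, Vegfa from -0.066 to 0.56 and Bnip3 from -0.84 to 0.40. For Tet2 cKO, 0 to 7 passed, with Egln1 from -0.24 to 0.84, Egln3 from -0.079 to 0.68, Hif1a from -0.32 to 0.032, Epas1 from -0.084 to 0.83, Bnip3 from -0.038 to 1.65 and Ldha from -0.13 to 0.65. For Tet1/2 cKO, Hif1a was from -0.20 to 0.19 and Vhl from -0.047 to 0.32. For the interaction, 2 to 6 genes passed, with Egln3 from -0.084 to 1.03, Hif1a from -0.10 to 0.28 and Ldha from -0.60 to 0.38.

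Members with at least 1.5-fold less 5hmC in VitC+/- femurs numbered 0, against 2 in a 10 kb window, 1 with peaks of −log10 q of at least 5 and 1 by number of peaks. By number of peaks, 4 members had less in Tet1/2 cKO in place of 8, and 1 had less in MC3T3-E1 cells with VitC in place of 0. The Vegfa ratio for Tet1/2 cKO turned to 0.17 in a 10 kb window and to 0.38 by number of peaks.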
